A study of Arabidopsis thaliana with 6 samples.

Results

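Chaperones help other proteins to fold, and the genes described here were picked by symbol: a probe set had to name a single gene whose symbol begins with HSP, HSC70, HSF, DNAJ, ERDJ, FKBP, ROC or ROF with a digit, CPN, BAG with a digit, BIP or PDIL, with or without an AT prefix. Of 8950 probe sets naming 1 gene, among 16129 in all, 9 met this rule, and each stood for a different gene out of 8854. They are the chloroplast chaperonin genes Cpn60beta2 (AT3G13470), Cpn60beta3 (AT5G56500) and Cpn60beta4 (AT1G26230), the cytosolic HSP70 gene Hsp70-2 (AT5G02490), and 4 genes of the endoplasmic reticulum (ER). The ER genes are the J-domain genes ATERDJ2A (AT1G79940), ATERDJ2B (AT4G21180) and ATERDJ3B (AT3G62600) and the disulfide isomerase gene PDIL5-1 (AT1G07960). The ninth, CPNIFS (AT1G08490), begins with CPN but encodes a chloroplast cysteine desulfurase, which releases sulfur for iron-sulfur clusters. It is no chaperone, and it is described apart from the other 8. The rule found 0 heat shock factors, 0 small heat shock proteins, 0 BiP genes and 0 genes of the BAG, FKBP, ROC and ROF families, so the heat shock factors named in the rule are not represented. A further 6840 probe sets had no entry in the platform annotation, and other chaperone genes may lie among them. Another 2 that name 1 gene fitted the rule only by a synonym and were left out. How the 16129 probe sets of the series were chosen is not stated, so other genes may not be listed at all.

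The study addressed how glycerol-3-phosphate (G3P), an intermediate of glycerolipid and sugar metabolism, alters gene expression away from the leaf that receives it. Arabidopsis thaliana plants of the Columbia ecotype, 3 to 4 weeks old, were grown with 14 h of light at 22 degrees C and a relative humidity of 65%. A primary leaf was infiltrated with leaf exudate in MgCl2 (mock, 3 arrays) or with the same exudate in MgCl2 plus G3P (3 arrays), and distal leaves were harvested 24 h later. Both groups therefore received exudate and MgCl2, and each replicate was a separate group of plants on its own Affymetrix ATH1 array, which is read in 1 colour.

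HSP70 proteins bind and release unfolded chains in a cycle driven by ATP, and J-domain proteins bring them clients and start that cycle. In the ER the HSP70 partner is BiP, and disulfide isomerases form and rearrange the disulfide bonds of secreted proteins. Chloroplast Cpn60 subunits build a closed barrel in which proteins such as the large subunit of Rubisco fold. Several of these genes respond to heat or to unfolded proteins in plants, and ER chaperones also serve the maturation of immune receptors.

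The arrays shared a level, with 2% trimmed mean signals of 747 to 754 and median signals of 291 to 338. G3P replicate 3 stood apart, with correlations of 0.842 to 0.913 to the other arrays across probe sets, against 0.930 to 0.961 among the other 5. On this array 3.78% of all probe sets lay over 1 log2 unit above the range of the other 5 arrays and 3.81% over 1 log2 unit below it. The leaf label was checked with mesophyll markers. Of 13 listed, 5 had a named probe set, and their summed signal was 98891 to 118160 on mock arrays and 42978 to 99878 on G3P arrays, lowest on G3P replicate 3. The root marker PYK10, 1 of 8 on its list, had signals of 8.56 to 92.2, and 0 of 8 flower and pollen markers had a named probe set. Values below are log2(signal + 16), a scale whose lowest possible value is 4. A probe set's brightness depends on its own probes, so levels are compared across arrays and not between genes.

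With limma over all 16129 probe sets, 0 of the 9 genes passed a threshold of 0.05 on the Benjamini-Hochberg adjusted p, against 0.0% of all probe sets. The unadjusted p was under 0.05 for 0 of 9 as well, against 3.08% of all probe sets, and the exact rank-sum test, which cannot go below p = 0.1 with 3 against 3, could call none. The groups did not overlap for 0 of 9 genes, against 8.64% of all probe sets. Adjusted p-values of the 9 genes ran from 0.912 to 0.994 in limma, and unadjusted ones from 0.173 to 0.942. Differences (G3P minus mock) were above 0 in 5 genes and below 0 in 4. Their median was 0.02, where the median over all probe sets was -0.03 and 46.5% were positive. With 3 arrays a group these values bound a change rather than show that there was none. The 95% interval of the difference lay within 1 log2 unit in both directions for 6 of 9 genes, against 52.6% of all probe sets. The 3 genes whose interval reached past 1 log2 unit were Hsp70-2, Cpn60beta2 and ATERDJ2A. In bulk leaf RNA, fewer cells of a type and less RNA per cell cannot be told apart.

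**Figure D1:**
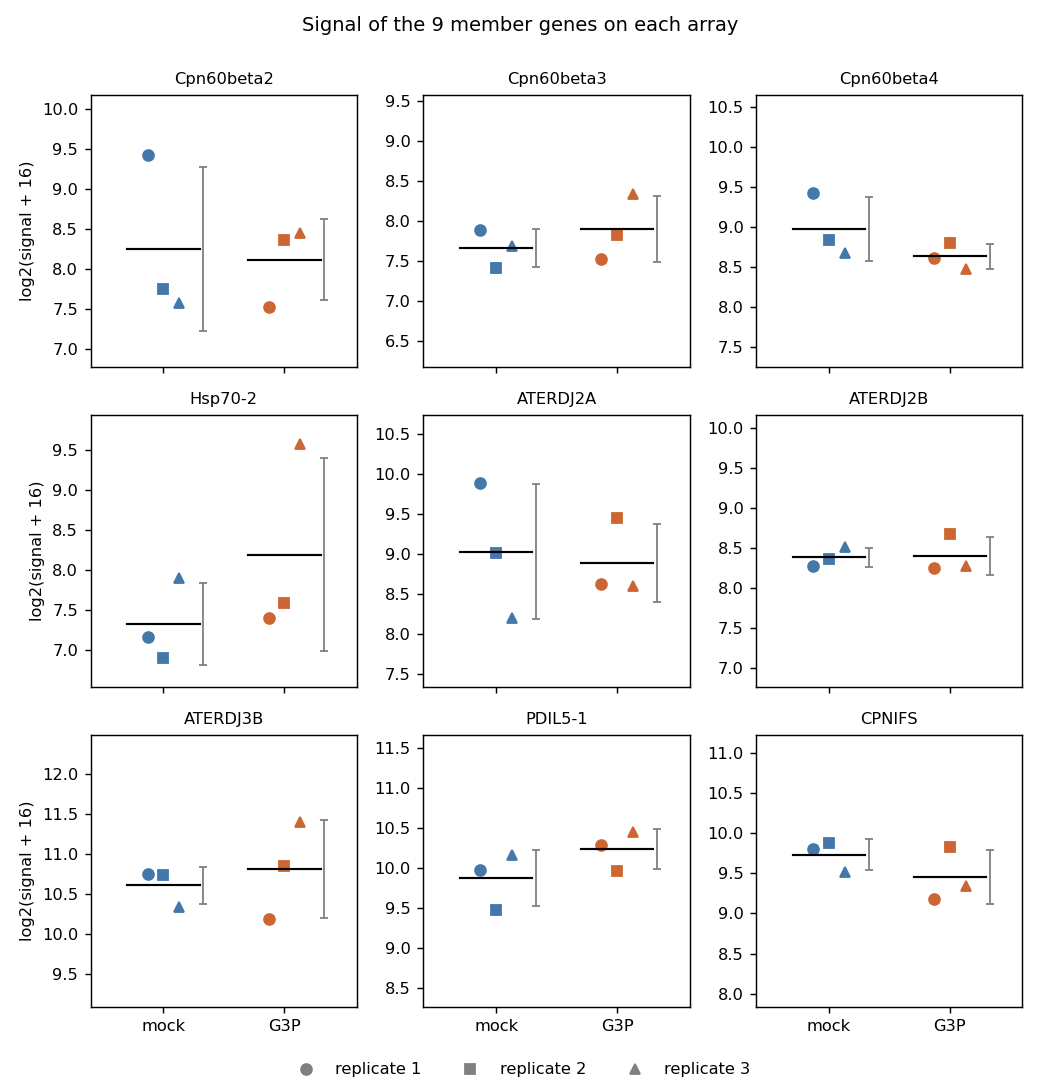
Signal of the 9 genes as log2(signal + 16), with 1 point per array (circle, square and triangle for replicates 1, 2 and 3), a black line at the group mean and a grey bar of 1 SD either way (n = 3). All panels span the same number of log2 units. Hsp70-2 stands at 9.58 on G3P replicate 3 and at 6.91 to 7.90 on the other 5 arrays, and the groups overlap in every panel.

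Hsp70-2, a cytosolic member of the HSP70 family, had the largest difference of the 9 genes and the widest spread. Its deposited signals in mock leaves were 128, 104 and 222 for replicates 1 to 3, and in G3P leaves 153, 177 and 750. The first 2 G3P arrays lay inside the mock range, and only G3P replicate 3 lay above it. On the log2 scale mock leaves had 7.32 ± 0.51 and G3P leaves 8.19 ± 1.21 (SD, n = 3 each). The difference was 0.87 ± 0.58 (SE), with a 95% interval of -0.47 to 2.21 (limma, adjusted p = 0.912). Without G3P replicate 3 it was 0.17 ± 0.35. The deposited signal on that array was 3.37 times the next highest, and it stood 1.68 log2 units above the other 5 arrays. Hsp70-2 was the 1 gene of the 9 that lay over 1 log2 unit outside the other arrays on any array. Its range over the 6 arrays was 2.67 log2 units, and 5.15% of all probe sets had a range at least as large.

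Other measurements moved on the same array. Of the 5 measured mesophyll markers, 4 had their lowest value of the 6 arrays on G3P replicate 3, against 28% of all probe sets. The other marker, RCA, was lowest on G3P replicate 1 (13.13, against 13.36 on G3P replicate 3). The largest drops on G3P replicate 3 were those of the antenna gene LHCB4.2 (12.80, against 14.39 to 14.73 elsewhere) and the photosystem I gene PSAN (12.43, against 13.98 to 14.47). The part of these shifts in the Hsp70-2 value was not tested. HSP70 genes of the cytosol are close relatives, and whether transcripts of others reach this probe set cannot be read from the files.

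Of the other chaperone genes looked up by symbol, 5 encode cofactors of cytosolic HSP70 or HSP90, a group that was not set in advance. Of these, 2 were highest on G3P replicate 3, against 24.5% of all probe sets. Fes1A, which binds cytosolic HSP70 and protects it from degradation, had 7.78, 8.18 and 8.68 on mock replicates 1 to 3 and 8.38, 8.46 and 8.93 on G3P replicates 1 to 3. Like Hsp70-2 it had its highest value on G3P replicate 3, but by 0.25 log2 units over the next array, and the groups overlapped. Its difference was 0.37 ± 0.30 (SE), and 0.21 without that array. SGT1A, an HSP90 cochaperone of plant immunity, had 9.15, 9.56 and 9.42 in mock and 9.17, 9.82 and 10.31 in G3P leaves. It too was highest on G3P replicate 3, with a difference of 0.39 ± 0.31 that was 0.12 without it. The 3 Hop genes, whose products link HSP70 with HSP90, did not share this order: Hop1 and Hop2 were highest on mock replicate 1 and Hop3 on G3P replicate 2, with differences given further on.

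The chloroplast chaperonins did not move as a group. Cpn60beta2, a subunit of the folding barrel, had 9.42, 7.75 and 7.57 on mock replicates 1 to 3 and 7.53, 8.36 and 8.44 on G3P replicates 1 to 3. Mock replicate 1 stood 0.97 log2 units above the next array, and the other 5 arrays of both groups overlapped. Mock leaves averaged 8.25 ± 1.02 and G3P leaves 8.11 ± 0.51 (SD, n = 3 each). They differed by -0.14 ± 0.51 (SE), with a 95% interval of -1.32 to 1.04. Without mock replicate 1 the difference was 0.45 ± 0.36, so the direction rested on that array. It was also positive without G3P replicate 1 (0.16) and with array quality weights (0.04). The ratio of median signals, the statistic the study's design names, was 1.57 for G3P over mock and so pointed the other way from the difference of means.

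Cpn60beta3, a sister subunit, had 7.89, 7.41 and 7.69 in mock and 7.52, 7.82 and 8.34 in G3P leaves. The G3P array at 8.34 was replicate 3 and lay above all others, while the other 2 fell inside the mock range. The difference was 0.23 ± 0.29 (SE), and 0.01 without G3P replicate 3. Cpn60beta4, a divergent subunit needed in the chloroplast to fold a component of the NADH dehydrogenase-like complex, stood at 9.42, 8.83 and 8.67 in mock and 8.61, 8.79 and 8.47 in G3P leaves. Here 2 of 3 G3P arrays lay below every mock array, and G3P replicate 2 lay inside the mock range. Its difference was -0.34 ± 0.26 (95% interval -0.95 to 0.26), and -0.12 without mock replicate 1.

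The 3 chaperonin genes thus had 1 positive and 2 negative differences, with a median of -0.14. On each array the median of their deviations from the gene's own mean was 0.62 on mock replicate 1, -0.37 on mock replicate 2 and -0.13 on mock replicate 3. On G3P replicates 1 to 3 it was -0.25, 0.04 and 0.27. Mock replicate 1 was the highest array and mock replicate 2 the lowest, so the mock arrays spanned the G3P arrays. Without mock replicate 1 the median difference was 0.34. Over all probe sets the median deviation was 0.07 on mock replicate 1 and -0.05 on G3P replicate 3. A median over all probe sets on arrays of a shared level lies near 0, so it gives no measure of how far a median of 3 genes varies.

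**Figure D2:**
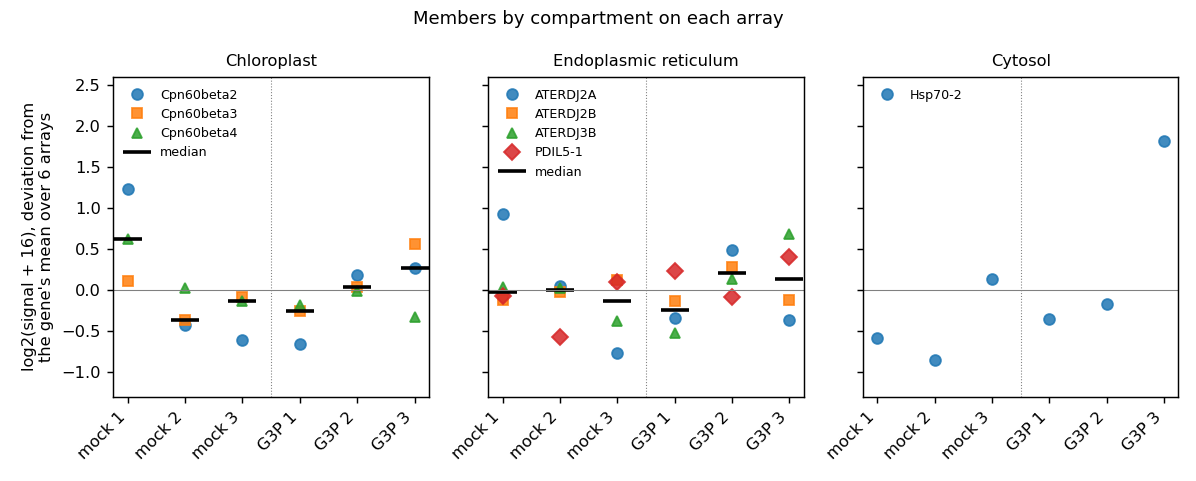
Deviation of each gene from its own mean over the 6 arrays, on log2(signal + 16), for the chloroplast chaperonins (3 genes), the ER members (4 genes) and the cytosolic gene Hsp70-2, with black dashes at the median. Chaperonins have their highest median, 0.62, on mock replicate 1, ER medians stay between -0.24 and 0.21, and Hsp70-2 reaches 1.82 on G3P replicate 3.

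The median deviation of the ER members lay between -0.24 and 0.21 on the 6 arrays, but single genes moved in different directions. On G3P replicate 3 ATERDJ3B stood 0.69 and PDIL5-1 0.40 above their own means, while ATERDJ2A had -0.36 and ATERDJ2B -0.12. ATERDJ2A and ATERDJ2B encode J-domain proteins of the ER membrane related to yeast Sec63, which works with BiP at the channel for protein import. ATERDJ2A had 9.88, 9.003 and 8.19 on mock replicates 1 to 3 and 8.61, 9.45 and 8.60 on G3P replicates 1 to 3. Its mock arrays spanned all 3 G3P values, and its difference was -0.14 ± 0.44 (SE, 95% interval -1.17 to 0.89). This direction turned with either of 2 arrays left out, to 0.29 for mock replicate 1 and 0.01 for G3P replicate 3, and it was 0.01 with array quality weights.

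ATERDJ2B, its paralog, was the steadiest of the 9 genes. It had 8.28, 8.37 and 8.52 in mock and 8.26, 8.68 and 8.28 in G3P leaves, a range of 0.42 log2 units, and 93.5% of all probe sets had a range at least as large. The difference was 0.02 ± 0.23 (SE, 95% interval -0.51 to 0.54), so a doubling or halving lay outside the interval on this scale. Leaving out G3P replicate 2 gave -0.12, and leaving out mock replicate 1 gave -0.04. The ratio of its median signals was 0.93 for G3P over mock, so here too it pointed the other way from the difference of means.

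ATERDJ3B, a soluble J-domain protein that works with BiP and SDF2 in the maturation of the immune receptor EFR, had 10.75, 10.74 and 10.34 in mock leaves. In G3P leaves it had 10.19, 10.85 and 11.40. G3P leaves thus held both the lowest and the highest value of the 6 arrays. The means were 10.61 ± 0.24 and 10.81 ± 0.61 (SD, n = 3 each), and they differed by 0.20 ± 0.32 (SE, 95% interval -0.53 to 0.94). Leaving out G3P replicate 3 gave -0.09, and leaving out G3P replicate 1 gave 0.52.

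PDIL5-1, a protein disulfide isomerase-like gene, had 9.98, 9.48 and 10.16 on mock arrays and 10.28, 9.97 and 10.46 on G3P arrays. Here 2 of 3 G3P values lay above every mock value, and the third was just under that of mock replicate 1. The means were 9.87 ± 0.35 and 10.24 ± 0.25 (SD, n = 3 each). The difference was 0.36 ± 0.25 (SE), with a 95% interval of -0.22 to 0.94 (limma, adjusted p = 0.912). It was positive with each array left out in turn, from 0.17 without mock replicate 2 to 0.50 without mock replicate 3.

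Over the 4 ER genes 3 differences lay above 0 and 1 below, and their median was 0.11. Their median deviations were -0.02, 0.00 and -0.13 on mock replicates 1 to 3 and -0.24, 0.21 and 0.14 on G3P replicates 1 to 3. The G3P arrays therefore held both ends of the range. The 3 J-domain genes alone had a median difference of 0.02.

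**Figure D3:**
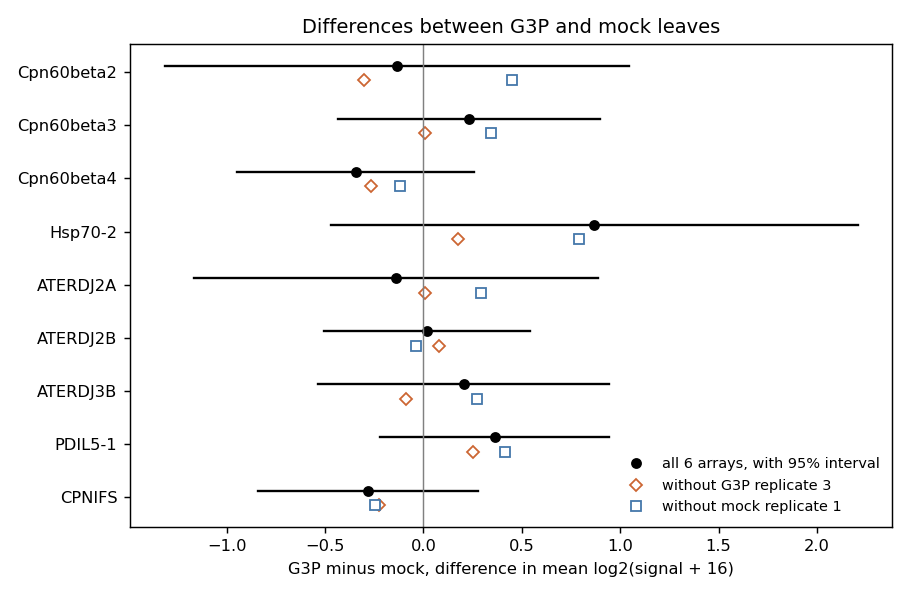
Difference between G3P and mock leaves in mean log2(signal + 16) for each gene. Black points with bars are the values from all 6 arrays with their 95% interval, open diamonds the values without G3P replicate 3 and open squares those without mock replicate 1. Every bar crosses 0, Hsp70-2 moves from 0.87 to 0.17 without G3P replicate 3, and Cpn60beta2 from -0.14 to 0.45 without mock replicate 1.

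Related genes were set against each other through their log2 ratio within each array, for 4 pairs. The ratio of Cpn60beta3 to Cpn60beta4 was higher in G3P than in mock leaves by 0.58 (SD 0.29 in mock and 0.52 in G3P, n = 3 each; exact permutation p = 0.2, two-sided, adjusted p = 0.8 over the 4 pairs). That of ATERDJ2A to ATERDJ2B differed by -0.15 (exact p = 0.8, adjusted 0.9), Cpn60beta2 to Cpn60beta3 by -0.37 (exact p = 0.7, adjusted 0.9) and Cpn60beta2 to Cpn60beta4 by 0.21 (exact p = 0.9, adjusted 0.9). With 3 against 3 the smallest exact p is 0.1, so no pair could pass. Within mock leaves the ratio of ATERDJ2A to ATERDJ2B varied with an SD of 0.96, and within G3P leaves with an SD of 0.25. These ratios show how unequally a pair moved and not which gene moved.

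CPNIFS, the desulfurase gene, had 9.80, 9.89 and 9.51 in mock and 9.19, 9.83 and 9.34 in G3P leaves. Again 2 of 3 G3P arrays lay below every mock array, and G3P replicate 2 lay among them. The difference was -0.28 ± 0.24 (SE, 95% interval -0.84 to 0.28), and it was negative with each array left out in turn. The lowest value was -0.47 (G3P replicate 2 left out) and the highest -0.15 (G3P replicate 1 left out).

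Which array was highest differed by gene. G3P replicate 3 was highest for 4 of 9 genes, namely Hsp70-2, ATERDJ3B, PDIL5-1 and Cpn60beta3, and it was highest for 24.5% of all probe sets. Mock replicate 1 was highest for 3, namely Cpn60beta2, Cpn60beta4 and ATERDJ2A, against 27.3% of all probe sets. G3P replicate 1 was lowest for 4 of 9, namely Cpn60beta2, ATERDJ2B, ATERDJ3B and CPNIFS, against 19.4%. With 9 genes these counts describe the members and were not tested.

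Other genes of the folding machinery came from a list of 97 symbols, of which 14 had a named probe set. In limma 0 of the 14 passed after adjustment, and 0 had an unadjusted p under 0.05. Differences lay above 0 for 5 and below 0 for 9, and their median was -0.04. The groups did not overlap for 2, Hop3 and HSA32, against 8.64% of all probe sets. By set these were 5 of 26 ER folding and unfolded-protein-response names, 6 of 14 heat-response names, 3 of 29 isomerase names and none of the chaperonin or organelle names.

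Hop3, a scaffold that links HSP70 with HSP90, had 4.77, 4.44 and 4.23 in mock and 4.81, 6.12 and 5.57 in G3P leaves. All G3P arrays lay above all mock arrays, although mock replicate 1 and G3P replicate 1 lay close together. Its difference was 1.03 ± 0.48 (SE, 95% interval -0.09 to 2.14, limma adjusted p = 0.912). Most of these values lie near 4, the lowest the scale allows, so the size of the difference is uncertain. The related genes Hop1 and Hop2 had differences of -0.55 ± 0.36 and -0.04 ± 0.30, with overlapping groups.

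HSA32, a plant heat-stress protein that sustains acquired heat tolerance, had 6.78, 6.80 and 6.89 in mock leaves and 6.56, 6.19 and 5.77 in G3P leaves. All G3P arrays lay below all mock arrays, and the mock arrays were close together. The difference was -0.65 ± 0.31 (SE, 95% interval -1.37 to 0.07, limma adjusted p = 0.912), and -0.44 without G3P replicate 3. HSA32, like Hop3, was among the dimmest 25% of probe sets. Hop3 and HSA32 are both heat-inducible genes. Their differences had opposite signs, and both intervals included 0.

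In the ER set, BZIP28, a membrane-bound transcription factor that activates chaperone genes when unfolded proteins collect, had 9.14, 9.53 and 8.96 in mock and 7.48, 9.18 and 9.08 in G3P leaves. G3P replicate 1 lay 1.48 log2 units below the other 5 arrays, which overlapped. The difference was -0.63 ± 0.45 (SE), and -0.08 without that array. On G3P replicate 1, 0.738% of all probe sets lay over 1 log2 unit below the other arrays. BZIP60, the second such factor, had a difference of -0.09 ± 0.39 and BZIP17, a relative of BZIP28, one of -0.04 ± 0.26. DER1 and OS9, which serve the disposal of misfolded ER proteins, had 0.20 ± 0.20 and -0.04 ± 0.25.

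The listed isomerases that had a named probe set were cyclophilins. CYP57 (AT4G33060) had 8.69, 8.54 and 8.04 in mock and 7.54, 7.82 and 8.08 in G3P leaves, a difference of -0.61 ± 0.27 (SE, 95% interval -1.24 to 0.02). Only mock replicate 3 and G3P replicate 3 overlapped. CYP59 had -0.51 ± 0.34 and CYP71, a nuclear cyclophilin that acts on chromatin, 0.11 ± 0.24, both with overlapping groups.

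**Figure D4:**
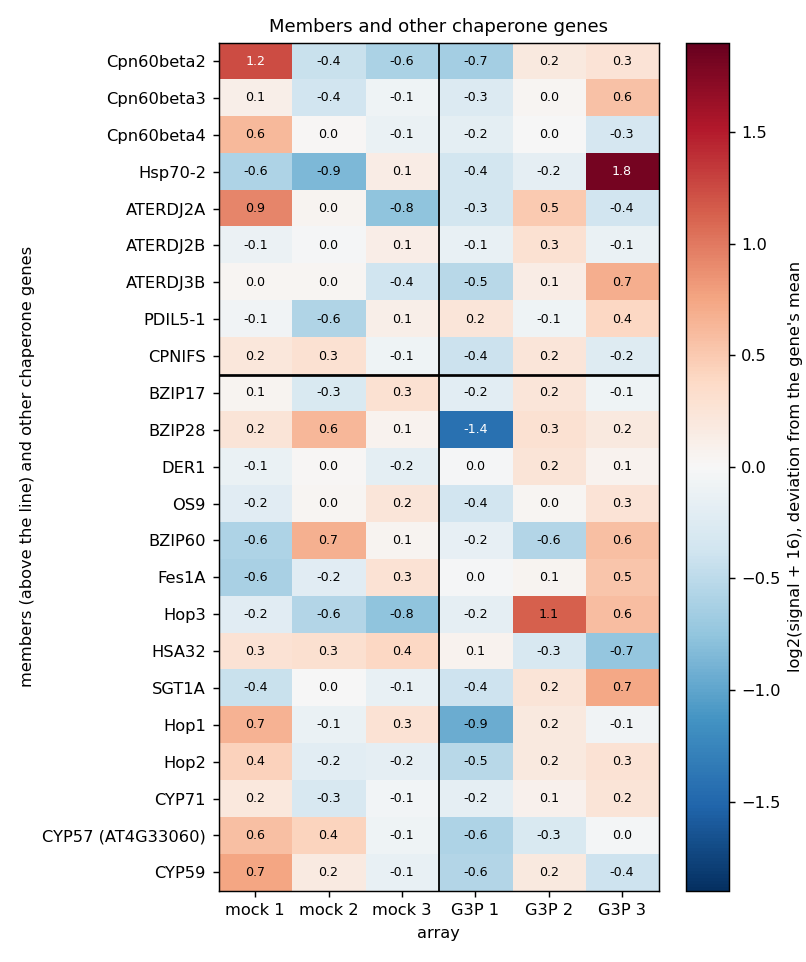
Deviation of each gene from its own mean over the 6 arrays, on log2(signal + 16), written in each cell and shown as colour (red above, blue below) for the 9 genes picked by symbol (above the line) and the 14 other chaperone genes (under it). The strongest cells are Hsp70-2 on G3P replicate 3 (1.82) and BZIP28 on G3P replicate 1. On G3P replicate 1 all genes but PDIL5-1 (0.23) and HSA32 (0.06) lie below their own mean, with DER1 and Fes1A at only -0.02. The share of all probe sets below their own mean on that array was not counted. The median over all probe sets there is -0.02, which gives no measure of how far so few genes vary together. The columns of G3P replicates 2 and 3 hold both colours.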

How the data were processed

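The deposited table gives each probe set 1 intensity per array, unlogged. The submitters' processing notes name Affymetrix Expression Console 1.0 as the source of these deposited intensities; how probes were summarized and scaled is not stated. Signals were used as deposited, because the array medians on the log2(signal + 16) scale spanned 0.206, less than the 0.3 allowed. The 2 groups were compared by limma 3.58.1 (R 4.3.3; lmFit, eBayes with a variance trend, no covariates) over all 16129 probe sets, with p-values adjusted by Benjamini-Hochberg and called at 0.05. Changes of dim probe sets are understated because 16 was added. The study's design names a rank-sum test, whose exact p is at least 0.1 with 3 against 3, so it was an alternative. The fit was also run on simulated data with independent normal noise. Those data held no array that stood apart as G3P replicate 3 did, so they cannot show how such an array affects the fit.

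Genes were named through the platform annotation (339 probe sets with several genes, 1 of them fitting the symbol rule in part, were left out), and all 9 members matched RefSeq (TAIR10.1), used for names only. The digit in the rule was read as required after ROC, ROF and BAG. Compartments were assigned by hand after the members were known. The members and lists were chosen with earlier results of these data known. All 9 members are named, as each role held at most 4. On the list of other genes 3 symbols matched another gene and were left out. The number of arrays limits the precision. Sequences and detection calls were not used here.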

Additional observations from a re-analysis of the deposited data

How the results depend on the processing

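The count of 0 members past the adjusted threshold held under the 14 other settings tried with limma, as did the count of 0 over all probe sets; the rank-sum test could give no call. With the replicate block (replicate number in the fit) 1 member, Hsp70-2, had an unadjusted p under 0.05 (0.0448, adjusted p = 0.880), against 0 otherwise. Nothing in the sources says that numbers mark shared plants, and the deviations of same-numbered arrays correlated at 0.0061, -0.102 and 0.314, so the block was kept out. Unadjusted p-values under 0.05 numbered 496 over all probe sets, 685 with the replicate block, 0 by the rank-sum test and 233 to 1196 with 1 array left out. Members with non-overlapping groups numbered 0 to 4 with 1 array left out (4 without G3P replicate 2, where 24.9% of all probe sets did not overlap). The median difference of the 9 members was 0.02 (-0.12 without G3P replicate 2 to 0.29 without mock replicate 1), and that of the chaperonins -0.14 (-0.47 to 0.34, the highest without mock replicate 1). Of 126 recomputed member differences 9 had the opposite sign. For Cpn60beta2 (-0.14) these were 0.036 with array weights, 0.45 without mock replicate 1 and 0.16 without G3P replicate 1, and for ATERDJ2A (-0.14) 0.010 with array weights, 0.29 without mock replicate 1 and 0.0070 without G3P replicate 3. For ATERDJ2B (0.02) they were -0.038 without mock replicate 1 and -0.12 without G3P replicate 2, and for ATERDJ3B (0.20) -0.090 without G3P replicate 3. With 1 array left out the lowest values were -0.47 for Cpn60beta2 and -0.56 for ATERDJ2A, and the highest 0.090 for ATERDJ2B and 0.52 for ATERDJ3B. The cause of these changes was not tested. Each gene had 1 probe set, so the choice among probe sets could change nothing.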

Other observations

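Of the ER genes outside the symbol rule, BZIP28, OS9 and CRT1b had their lowest value on G3P replicate 1, OS9 by only 0.15 log2 units. CRT1b, a calreticulin of the ER that holds glycoproteins during folding, was looked up after the data were seen. It had 10.79, 10.12 and 10.23 on mock replicates 1 to 3 and 8.76, 10.53 and 10.39 on G3P replicates 1 to 3. G3P replicate 1 lay 1.36 log2 units below the other 5 arrays, as it did for BZIP28 by 1.48 and for ATERDJ3B by 0.15. The CRT1b difference was -0.49 ± 0.47 (SE), and 0.08 without that array. Of the 4 ER members and 5 listed ER genes together, 4 of 9 were lowest on G3P replicate 1, against 19.4% of all probe sets. ATERDJ2B was among these by only 0.02 log2 units. Of the 14 listed genes 6 were lowest there, among them Hop1 (by 0.82 log2 units), Hop2, CYP57 and CYP59 from the heat-response and isomerase sets. The chloroplast genes Cpn60beta2 and CPNIFS were lowest there as well, so the low values were not particular to ER genes.

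ROF2 (AT5G48570), an FKBP-type isomerase of the heat response that the annotation lists by locus only, was also added after the data were seen. It had 6.38, 6.36 and 6.88 in mock and 6.59, 6.71 and 6.95 in G3P leaves, with overlapping groups and a difference of 0.21 ± 0.29 (SE).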
